A study of Mus musculus with 8 samples.

Results

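The 9 genes described here, Isg15, Ifit1, Ifit3, Irf7, Oasl2, Ifi44, Usp18, Rsad2 and Zbp1, are switched on in mouse cells by type I interferon. They were taken by name as a readout of innate sensing of nucleic acids, and their probes are those whose transcript identifier in the array files is a RefSeq transcript of the gene. All 9 genes had a probe, 12 probes of 56605 in all. Of the 9, 7 were measured well enough to be tested, out of 23105 features tested. RNA came from femoral growth plate cartilage of 12-day-old littermate mice, 4 labelled CreTW and 4 labelled Cre, with 1 array of the 1-colour Agilent 8x60K design for each animal's RNA. The labels give the genotypes only by these names. As background on the study, and not from the labels, both groups carry a Cre recombinase driven in chondrocytes by the Col2a1 promoter, and CreTW mice also carry a Cre-dependent mutant Twinkle, the helicase that replicates mitochondrial DNA. Since the transgene acts in cells with Cre activity, other cells of the dissected tissue need not carry the change. The question addressed is whether interferon-stimulated genes differ in cartilage in which the respiratory chain was inactivated, named in the series title.

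Mitochondrial DNA that reaches the cytosol can be bound by the sensor cGAS, which signals through STING, the kinase TBK1 and the transcription factor IRF3 to the interferon beta gene. Double-stranded mitochondrial RNA can be bound by MDA5 or RIG-I, which signal through MAVS. Secreted interferon binds IFNAR, and the kinases JAK1 and TYK2 then activate a transcription factor complex that includes STAT2 and IRF9 and binds a response element in the promoters of interferon-stimulated genes. Many cell types can respond in this way, among them macrophages and stromal cells.

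The response element core, GAAA followed by any 2 bases and GAAA again, was searched on both strands in 300 bases around the start of each gene, 250 before and 50 after it. RefSeq promoter sequence of the GRCm38.p6 build matched 7 of the 9 genes by symbol, all but Usp18 and Zbp1. Of the 7, 4 held the core, against 3.99% of 27025 genes in the table by any promoter, or 3.44% of its 32851 promoters. Those 4 are printed to show where the element lies, as the 120 bases from -170 to -51 relative to the start, read 5′ to 3′ along the gene, with the bases of each match in capitals. The same core on the other strand reads TTTC, 2 bases and TTTC.
Isg15 (chr4:156200869-156200988, minus strand): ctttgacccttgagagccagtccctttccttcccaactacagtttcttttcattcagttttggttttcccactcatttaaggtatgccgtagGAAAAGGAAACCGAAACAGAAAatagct
Ifit3 (chr19:34583359-34583478, plus strand): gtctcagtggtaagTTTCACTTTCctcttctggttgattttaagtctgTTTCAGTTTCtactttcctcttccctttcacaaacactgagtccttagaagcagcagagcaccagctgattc
Ifit1 (chr19:34640719-34640838, plus strand): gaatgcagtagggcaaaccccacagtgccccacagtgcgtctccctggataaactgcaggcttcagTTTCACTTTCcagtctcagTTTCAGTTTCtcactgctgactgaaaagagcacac
Rsad2 (chr12:26456503-26456622, minus strand): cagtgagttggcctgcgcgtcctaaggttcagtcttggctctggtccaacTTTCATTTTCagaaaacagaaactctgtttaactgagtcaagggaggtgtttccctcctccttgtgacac
Isg15 held 3 overlapping matches that form 1 run of 22 bases, Ifit3 and Ifit1 held 2 matches each, and Rsad2 held 1. Oasl2, Irf7 and Ifi44 had no match, which says only that these letters are not in this window. Among the other interferon-stimulated genes listed below, 23 of 52 with a promoter entry held the core. A match is a description of sequence and not a measured binding site.

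Per array, 45.4% to 57.9% of probes passed the scanner software's test for signal well above background, and no spot was saturated. Arrays of 1 genotype resembled each other (mean r 0.986 for CreTW and 0.986 for Cre) slightly more than arrays of different genotypes (0.982). All 10 chondrocyte markers listed were well above background on all 8 arrays, with a mean log2 level of 6.61 to 7.21 on CreTW arrays and 6.71 to 7.65 on Cre arrays. Markers of other tissues were also present, and 11 skeletal muscle markers had a mean level of -0.40 to 4.18 on CreTW arrays and -1.97 to 1.09 on Cre arrays. Twnk, the gene of Twinkle, lay between -2.64 and -1.85 on CreTW arrays and between -2.28 and -1.85 on Cre arrays. Its probe may lie outside the transgene, so this checks no label. A level here is the log2 of a probe's background-subtracted intensity minus that of the array's 75th percentile, so that 0 is the 75th percentile. Levels are compared between arrays for the same probe and not between genes, because probes differ in brightness. Precision is limited by the 4 arrays of each genotype.

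No difference between CreTW and Cre cartilage passed the test for any of the 7 tested genes. The limma test with Benjamini-Hochberg adjustment over all features called 0 of the 7, against 0.346% of all features tested (80 of 23105). At an unadjusted p under 0.05 the count was also 0 of 7, against 10.7% of all features. The genotypes overlapped for each of the 7, whereas no overlap was found for 6.7% of all features. In sign, 3 genes were higher and 4 lower in CreTW, with a median log2 difference of -0.14, beside -0.01 over all features.

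**Figure D1:**
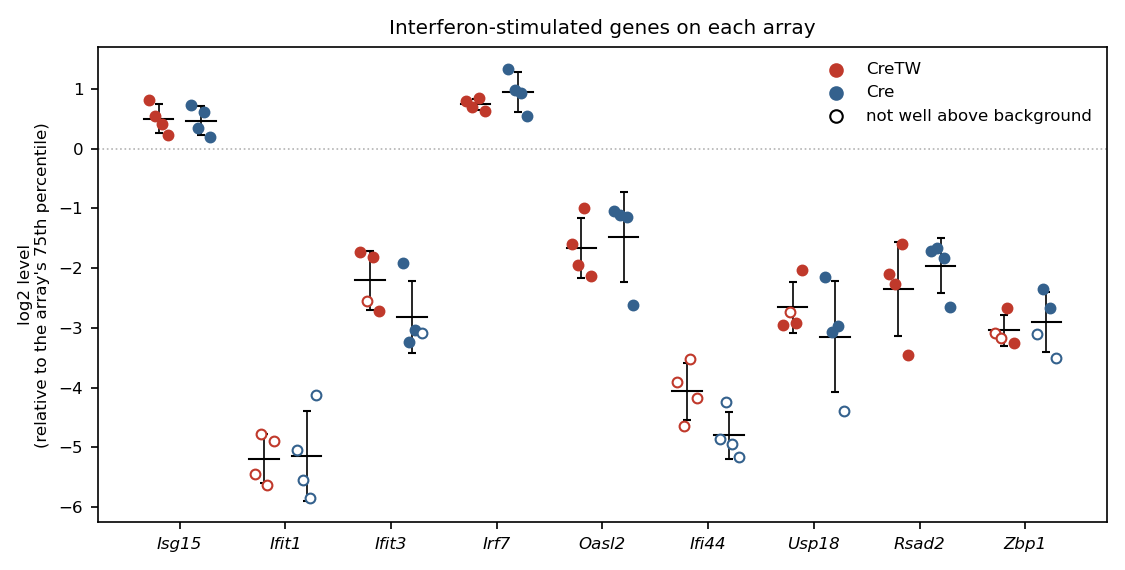
Log2 level of each of the 9 genes on each array, relative to the array's 75th percentile, with 4 CreTW arrays in red on the left and 4 Cre arrays in blue on the right of each gene. Open circles were not well above background, bars are the mean with the SD, and the genotypes overlap for every gene, with all 8 points of Ifit1 and Ifi44 open.

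Isg15 encodes a ubiquitin-like protein that is joined to other proteins in interferon-treated cells. Its level was 0.82, 0.55, 0.42 and 0.23 on CreTW arrays 1 to 4, and 0.73, 0.34, 0.61 and 0.20 on Cre arrays 1 to 4. It was well above background on all 8 arrays, with an intensity of 183 to 286 scanner units. The spread within each genotype (SD 0.25 in CreTW and 0.24 in Cre, n = 4 each) exceeded the log2 difference of 0.03 ± 0.16 (SE), and the adjusted p from limma was 0.959. The 95% interval of the difference ran from -0.33 to 0.40, or 0.794-fold to 1.32-fold.

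Ifit3 and Ifit1 encode members of the tetratricopeptide family that recognise foreign RNA, with Ifit1 binding its 5′ end. Ifit3 had levels of -1.73, -2.55, -1.82 and -2.72 on the CreTW arrays and -1.91, -3.24, -3.04 and -3.09 on the Cre arrays. CreTW replicates 1 and 3 and Cre replicate 1 were high, and the other 3 Cre arrays lay below every CreTW array. Its log2 difference of 0.61 ± 0.34 was the largest in size among the 7, with an interval of -0.16 to 1.38 (limma adjusted p = 0.561). Without single arrays it ran from 0.46 without CreTW replicate 1 (adjusted p = 0.715) to 0.91 without Cre replicate 1 (adjusted p = 0.329). Ifit3 was well above background on 3 of 4 arrays of each genotype, and its near-identical copy Ifit3b may share its probe, so the value may mix both genes. Ifit1 was not well above background on any array, with levels of -5.64 to -4.78 in CreTW and -5.85 to -4.13 in Cre, so no fold is given.

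Oasl2 encodes an oligoadenylate synthetase-like protein with ubiquitin-like domains. Levels were -1.59, -1.95, -0.99 and -2.14 in CreTW and -1.04, -1.12, -1.15 and -2.61 in Cre. Cre replicates 1 to 3 were close together, and Cre replicate 4 was the lowest of all 8 arrays. The log2 difference was -0.19 ± 0.39 (interval -1.07 to 0.70, limma adjusted p = 0.893), and without single arrays it ran from -0.57 without Cre replicate 4 (adjusted p = 0.339) to -0.03 without CreTW replicate 4.

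Rsad2 encodes viperin, a radical SAM enzyme that makes an antiviral nucleotide. It had levels of -2.10, -2.26, -1.59 and -3.45 on CreTW arrays and -1.71, -1.66, -1.83 and -2.64 on Cre arrays. Replicate 4 was the lowest in each genotype, and the log2 difference of -0.39 ± 0.39 (interval -1.28 to 0.50, limma adjusted p = 0.738) was -0.62 without Cre replicate 4 and -0.02 without CreTW replicate 4. A second Rsad2 probe was not well above background on any array. Ifi44 encodes a cytoplasmic protein induced by interferon and was likewise not well above background on any array, with levels of -3.91, -4.65, -3.52 and -4.18 in CreTW and -4.86, -4.24, -4.95 and -5.16 in Cre. Since neither genotype was well above background for Ifi44, these values carry no fold.

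Irf7 encodes the transcription factor that amplifies interferon production, and Zbp1 a sensor of Z-form nucleic acids that can start necroptosis. Irf7 had levels of 0.79, 0.70, 0.84 and 0.63 on CreTW arrays and 1.34, 0.98, 0.94 and 0.54 on Cre arrays. The CreTW arrays were close together (SD 0.09) and lay within the range of the Cre arrays (SD 0.33). Its log2 difference was -0.21 ± 0.16 (interval -0.57 to 0.15, limma adjusted p = 0.662), -0.34 without Cre replicate 4 and -0.08 without Cre replicate 1. A second Irf7 probe of the same transcript was well above background on 1 of 8 arrays, so the gene's values rest on the brighter probe. Zbp1 was well above background on 2 of 4 arrays of each genotype, with levels of -3.08, -3.17, -2.66 and -3.26 in CreTW and -3.10, -2.35, -2.67 and -3.50 in Cre. The Zbp1 difference was -0.14 ± 0.25 (interval -0.70 to 0.43, limma adjusted p = 0.871), and its other probe was not well above background on any array.

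Usp18 encodes the protease that removes ISG15 from proteins and damps the interferon receptor. Levels were -2.95, -2.74, -2.91 and -2.03 on CreTW arrays and -2.16, -3.07, -2.97 and -4.39 on Cre arrays. It was well above background on 3 of 4 arrays of each genotype, and the low value of Cre replicate 4 was not. CreTW replicate 4, the lowest CreTW array for the other 6 tested genes, was the highest of the 4 for Usp18. The log2 difference was 0.49 ± 0.43 (interval -0.50 to 1.48, limma adjusted p = 0.704), it was 0.07 without Cre replicate 4 and 0.82 without Cre replicate 1, and its sign turned with normexp background correction (-0.026).

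The arrays lay in 2 rows of 1 slide with 2 of each genotype in each row. Within row 1 and row 2 the log2 differences were 0.15 and -0.08 for Isg15, 0.43 and 0.79 for Ifit3, -0.69 and 0.32 for Oasl2, and -0.23 and 1.21 for Usp18. Those of Zbp1 were -0.40 and 0.12, of Rsad2 -0.49 and -0.29, and of Irf7 -0.41 and 0.00064. Isg15, Oasl2, Usp18 and Zbp1 thus had opposite signs in the rows. Irf7 was lower in row 1 and had no direction in row 2 (0.00064 ± 0.21). Of the 7 genes, 0 were called in either row or with the row as a block.

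**Figure D2:**
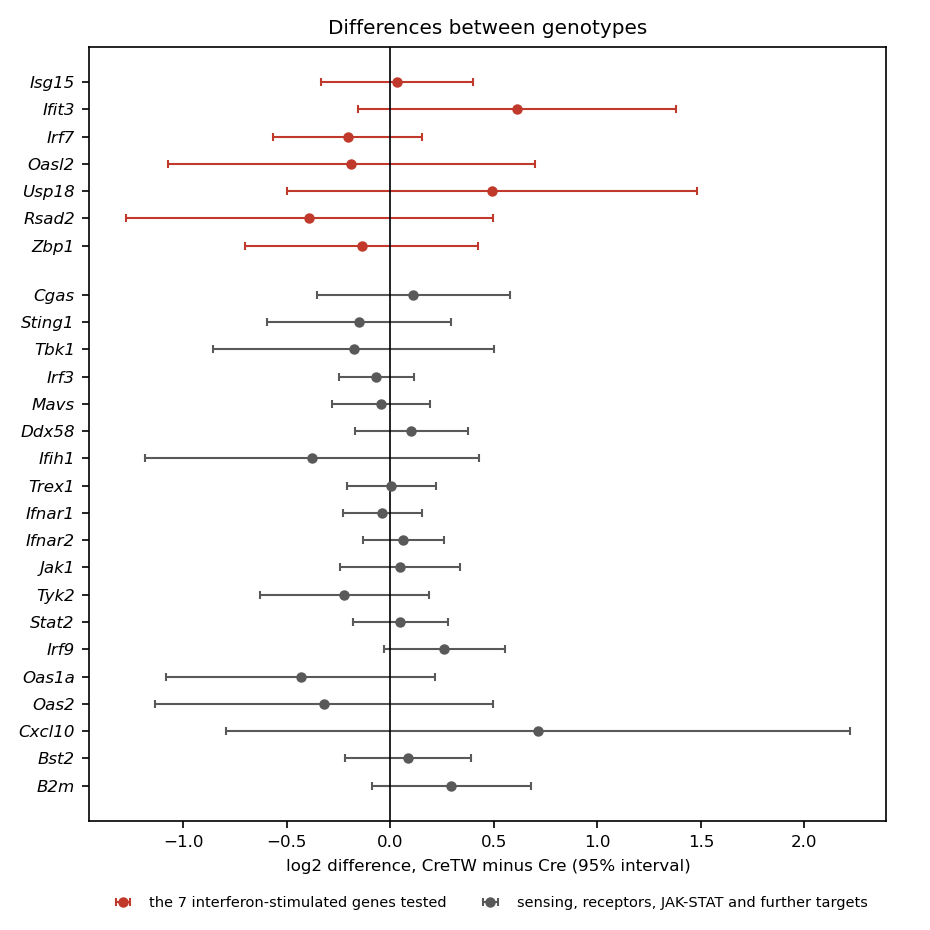
Log2 difference of each tested gene, CreTW minus Cre, with its 95% interval from limma, for the 7 tested interferon-stimulated genes in red and 19 genes of sensing, signalling and response in grey. Every interval includes 0, and those of Irf3, Ifnar1 and Trex1 are narrow beside those of Usp18, Rsad2 and Cxcl10.

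Upstream genes were examined from lists of the pathway. Of 30 nucleic acid sensing genes with a probe 28 were tested and 0 passed in limma, with a median log2 difference of -0.07. At an unadjusted p under 0.05 there were 3, 1 higher and 2 lower, against 10.7% of all features. The DNA sensor Cgas was at 0.11 ± 0.20, its partner Sting1 at -0.15 ± 0.20, the kinase Tbk1 at -0.18 ± 0.30 and the transcription factor Irf3 at -0.07 ± 0.08. For the RNA sensors, Ddx58, which encodes RIG-I, was at 0.10 ± 0.12, Ifih1, which encodes MDA5, at -0.38 ± 0.35, and their adaptor Mavs at -0.04 ± 0.10. Leaving out single arrays moved Ifih1 between -0.55 and -0.02 (-0.02 without CreTW replicate 2) and Sting1 between -0.32 and -0.05. Trex1, the nuclease that degrades cytosolic DNA, was at 0.00 ± 0.09, and its interval ran from -0.21 to 0.22.

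Among interferons, receptors and JAK-STAT genes, 0 of 20 tested passed, and the median was -0.06. An unadjusted p under 0.05 was found for 0, against 10.7% of all features. Ifnb1, the gene of interferon beta, was not well above background on any array, with levels of -6.36 to -4.94 in CreTW and -6.25 to -5.24 in Cre. The receptor chains Ifnar1 and Ifnar2 were at -0.04 ± 0.08 and 0.06 ± 0.08, and the kinases Jak1 and Tyk2 at 0.05 ± 0.13 and -0.22 ± 0.18. Stat2 was at 0.05 ± 0.10 and Irf9 at 0.26 ± 0.13, with limma adjusted p-values of 0.895 and 0.519. The Stat2 value depended on the probe rule, since the mean of the gene's probes gave -0.40 ± 0.23 (limma adjusted p = 0.577).

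Of 68 other interferon-stimulated genes listed, 62 had a probe and 55 were tested. None passed in limma, and 2 had an unadjusted p under 0.05, against 10.7% of all features. In sign 29 were higher and 26 lower, and the median was 0.03. Oas1a and Oas2, oligoadenylate synthetases that activate RNase L, were at -0.43 ± 0.28 and -0.32 ± 0.36. Leaving out CreTW replicate 2 gave -0.24 for Oas1a and -0.14 for Oas2, and leaving out Cre replicate 4 gave -0.67 and -0.64. Bst2, which tethers virus particles to the cell surface, was at 0.09 ± 0.13, and B2m, the light chain of MHC class I, at 0.30 ± 0.17. Cxcl10, a chemokine, had the widest interval of the genes named, from -0.79 to 2.22, around a difference of 0.71 ± 0.66. The lowest Cxcl10 level was -5.28 on Cre replicate 4, and without that array the difference was 0.03. The 2 genes with an unadjusted p under 0.05, chosen after their values were seen, were Igtp, an interferon gamma-induced GTPase, at 0.62 ± 0.19 and Isg20, an exonuclease, at 0.45 ± 0.14, each with an adjusted p of 0.292. Ifit2 was well above background on 2 CreTW arrays and 1 Cre array and was not tested, and Mx1 and Mx2 had no probe by the transcript identifiers used here.

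**Figure D3:**
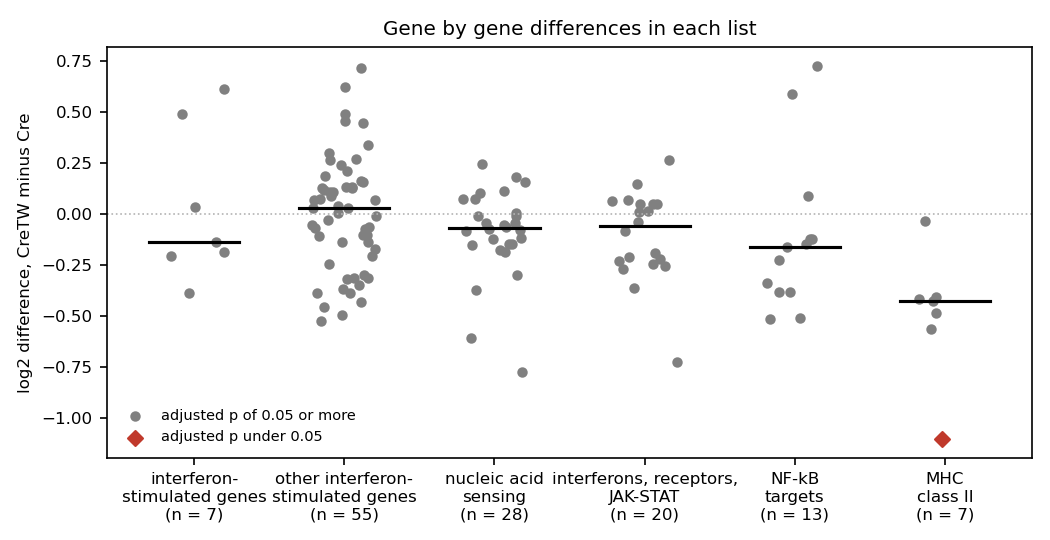
Log2 difference of each tested gene, CreTW minus Cre, in 6 lists, with the list median as a bar and genes past adjusted p 0.05 as red diamonds. The medians of the first 5 lists lie between -0.16 and 0.03, and the single diamond is H2-Ab1 at -1.10 in the MHC class II list.

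NF-kB targets, which the same sensors can induce, had 0 of 13 tested genes past limma and a median of -0.16. At an unadjusted p under 0.05 there were 4 of the 13, 2 higher and 2 lower, against 10.7% of all features. By the same test 1 of 7 MHC class II genes passed, against 0.346% of all features. H2-Ab1 had levels of 2.68, 2.32, 2.44 and 2.96 on CreTW arrays and 3.56, 3.99, 3.57 and 3.70 on Cre arrays. It was the only gene called in the 6 lists plotted by gene, with a log2 difference of -1.10 ± 0.16 (limma adjusted p = 0.0309), and the median of the 7 was -0.43. Its call was kept only without CreTW replicate 4 when single arrays were left out, and was lost without each of the other 7 arrays in turn (adjusted p 0.0681 to 0.103, differences -1.15 to -1.01) and with the slide row as a block (adjusted p = 0.0769). This gene can be induced by interferon gamma through Ciita rather than by type I interferon. Ciita, in the same list, was at -0.43 ± 0.33 (limma adjusted p = 0.668), and all 7 genes of the list were lower in sign. The cause of the H2-Ab1 difference was not tested, nor whether it is distinct from that of the interferon-stimulated genes.

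A single control animal stood low for many of these genes. Cre replicate 4 had the lowest value of 5 of the 7 tested genes and of 30 of the 55 other interferon-stimulated genes, whereas it was the lowest array for 9.31% of all features. The mean level of the 7 was -1.41, -1.63, -1.25 and -1.82 on CreTW arrays 1 to 4 and -1.12, -1.44, -1.44 and -2.21 on Cre arrays 1 to 4. The mean of the 55 others was -0.21, -0.57, -0.12 and -0.26 in CreTW and -0.02, -0.24, -0.12 and -0.77 in Cre. Both lists were lowest on Cre replicate 4 and highest on Cre replicate 1.

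Markers of immune cells and chondrocytes also differed between the arrays. The mean of 13 macrophage and monocyte markers was 0.48, -0.14, 0.82 and 0.54 in CreTW and 0.86, 0.68, 1.09 and -0.07 in Cre. For 7 lymphocyte markers it was -1.72, -2.27, -1.32 and -2.07 in CreTW and -0.80, -1.42, -0.44 and -2.17 in Cre. The chondrocyte markers had means of 7.13, 7.21, 6.61 and 6.93 in CreTW and 6.71, 7.20, 6.89 and 7.65 in Cre. Thus Cre replicate 4, low in interferon-stimulated genes, was also the lowest Cre array for macrophage and lymphocyte markers. It was the highest of all 8 for chondrocyte markers. Its low level was not limited to immune markers. It was also the lowest Cre array for endothelial (1.23, others 1.86 to 1.96), osteoclast (3.03, others 4.32 to 4.55) and erythroid markers (3.04, others 4.02 to 4.40). The same held for neutrophil markers and the sensing, JAK-STAT and NF-kB lists. For skeletal muscle markers and for fibroblast, tendon and perichondrium markers Cre replicate 2 was the lowest Cre array. Fewer cells of a type and less RNA per cell cannot be told apart in this tissue RNA, and the part of these cells in the levels was not tested.

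**Figure D4:**
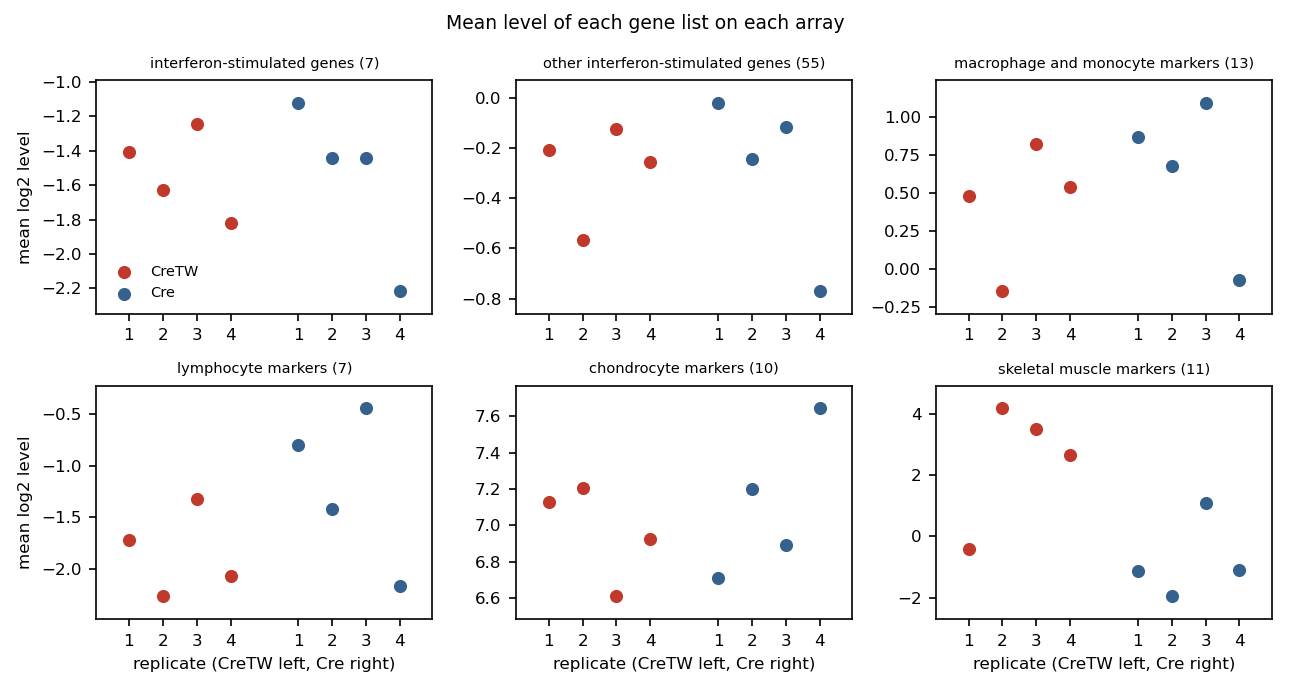
Mean log2 level of 6 gene lists on each array, with CreTW replicates 1 to 4 in red on the left and Cre replicates 1 to 4 in blue on the right, the number of genes in brackets and a separate axis for each list. Cre replicate 4 is lowest for both interferon-stimulated lists and highest for chondrocyte markers, and 3 CreTW arrays lie above every Cre array for skeletal muscle markers.

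Marker lists of other cell types were compared between genotypes in the same fit. Of the tested markers, 0 of 13 macrophage and monocyte genes, 0 of 7 lymphocyte genes, 0 of 7 neutrophil genes, 0 of 9 endothelial genes, 0 of 8 osteoclast genes, 0 of 4 erythroid genes and 0 of 10 fibroblast, tendon and perichondrium genes were called by limma. At an unadjusted p under 0.05 the counts were 2, 1, 0, 1, 0, 1 and 3 in that order. Over all features 0.346% were called and 10.7% had an unadjusted p under 0.05. Medians of the log2 difference were -0.08, -0.30, -0.18, -0.13, -0.84, -0.63 and 0.29. Among markers of plasmacytoid dendritic cells, a main source of interferon, 3 tested genes were higher and 5 lower in sign, with a median of -0.04. Siglech was well above background on all 8 arrays at -0.01, and Ccr9 and Klk1 were at or near background. Spib was at -0.85, Irf8 at -0.36, Runx2 at -0.21, Pacsin1 at -0.06, Tcf4 at 0.05 and Bst2 at 0.09. Bst2 was also counted among the other interferon-stimulated genes and Irf8 among the JAK-STAT genes. The median of this marker list need not follow plasmacytoid dendritic cells alone. In that list 1 of 8 was called, Cox6a2 at 4.45 ± 0.63 (limma adjusted p = 0.0271), which is also the muscle form of a complex IV subunit. Cox6a2 kept its call without CreTW replicate 1 or Cre replicate 3 and lost it without each of the other 6 arrays (adjusted p 0.0703 to 0.107) and with the slide row as a block (adjusted p = 0.0524). None of 11 skeletal muscle markers passed over all features, and their median was 3.36. Of the 11, 9 had an unadjusted p under 0.05, against 10.7% of all features. Of the 10 chondrocyte markers 0 passed and 0 had an unadjusted p under 0.05, with a median of -0.14.

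Pairs of the 7 tested genes varied together to different degrees. Over the 8 arrays the Pearson correlation of these pairs ran from -0.11 to 0.82 with a median of 0.46, and 19 of 21 pairs were positive. Oasl2 with Rsad2 (0.82), Oasl2 with Zbp1 (0.82) and Irf7 with Oasl2 (0.81) were the closest pairs, and Usp18 with Rsad2 (-0.06) and Ifit3 with Zbp1 (-0.11) the most distant. Usp18, Ifit3 and Zbp1 were not well above background on every array, which limits these correlations. All these values share the same 8 arrays and their normalization, so they are descriptions with n = 8 arrays. Oasl2 followed the mean of the 7 most closely (r = 0.94) and Usp18 least (r = 0.59). That mean includes the gene itself, which raises r, and more so for genes with a larger spread. Over deviations from the genotype means r was 0.96 for Oasl2, 0.95 for Irf7 and 0.62 for Usp18.

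Of 14120 features with a symbol outside the 9, those most like the mean of the 7 over the 8 arrays were Tmem104 (r = 0.98), Plk4 (0.97), Ceacam1 (0.96), Hpcal1 (0.95) and Chrne (0.94). Of these Ceacam1 had the widest range, with -1.54, -1.83, -1.30 and -1.78 in CreTW and -1.16, -1.50, -1.26 and -2.43 in Cre. As with the mean of the 7, its lowest array was Cre replicate 4 and its highest Cre replicate 1. Its choice by r with that mean favours this likeness, so it adds no further evidence. An r above 0.5 was found for 16.4% of the features compared.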

How the data were processed

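RNA of 8 femoral growth plates, 4 CreTW and 4 Cre, from 100 ng of total RNA each, was measured on 1-colour Cy3 arrays, per the labels. Per the file headers, Agilent Feature Extraction 11.5.1.1 gave the deposited intensity after background subtraction, with probes placed on mm9. The deposited log2 value table, which the authors made with GeneSpring 14.9 per the labels, equals the log2 intensity minus a constant per array. Unflagged spots of a probe were averaged, and levels are log2 intensity relative to the 75th percentile of the same array. The fit used probes detected well above background on 4 or more of the 8 arrays. Names came from RefSeq transcripts of GRCm38.p6, for 32994 of 56605 probes, with none matching several genes and 23611 matching none, and a gene's brightest kept probe was used.

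Genotypes were compared with limma 3.58.1 (lmFit and eBayes, 6 residual and 2.52 prior degrees of freedom) in R 4.3.3, adjusted by Benjamini-Hochberg at 0.05. P-values measure the spread between these mice. On simulated arrays of the 23105 features of this comparison, the share of altered genes recovered was 25.4% at a log2 change of 0.5, 69% at 1 and 93.9% at 2. The altered genes were drawn from all features, each with its own spread. These shares are therefore not the chance of a call for the interferon-stimulated genes, whose SEs ran from 0.16 (Irf7) to 0.43 (Usp18). The members and lists were chosen with earlier results of these data known. The rule for named genes took the 9 genes, 23 pathway genes (a further 1 is not reported here), called genes of each list or otherwise its 2 brightest, and the 5 features most alike. The brightest of lists without a call are given here only where the pathway genes include them. Normexp was run on the median signal, since the files used here give no mean signal. Alternatives were other normalizations, background corrections, filters, probe rules, blocks, weights and arrays left out.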

Additional observations from a re-analysis of the deposited data

Results flagged for a closer look

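With 4 arrays per genotype, 56 groups of 4 values were examined for a single array far from the other 3, and 7 were found. Chance flags about 1 in 20 such groups. On Cre replicate 4, Oasl2 was at -2.61, with the other Cre arrays at -1.15 to -1.04, and Rsad2 at -2.64, with the others at -1.83 to -1.66. On the same array Oas2 was at -2.89 (others -1.74 to -1.51), Bst2 at 1.20 (others 1.72 to 1.75) and Ifnar2 at 1.22 (others 1.40 to 1.43). Ifit3 was at -1.91 on Cre replicate 1, with the others at -3.24 to -3.04. Jak1 was at 2.95 on CreTW replicate 3, with the other CreTW arrays at 2.58 to 2.61.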

How the results depend on the processing

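None of the 9 genes was called under any of the 22 other settings, and their lowest adjusted p was 0.252 (Irf7 without Cre replicate 4). The count over all features, 80, was 27 with all dim probes kept, 53 with the slide row as a block, 0 in either slide row alone, 127 with array weights, 1 with CreTW replicate 1 alone against the 4 Cre arrays (a setting chosen after seeing the data) and 42 (without CreTW replicate 4) to 75 without single arrays. The cause was not tested, except that the settings with fewer arrays have fewer samples. The labels state no pairing by replicate number, and same-numbered arrays had correlations of deviations of -0.01, -0.10, 0.31 and -0.03. These correlations cannot exclude a pairing. A replicate block gave an SE of 0.186 for Ifit3 (limma adjusted p = 0.414), 0.185 for Rsad2 and 0.239 for Oasl2, each lower than in the main fit. For Usp18 the SE was 0.501, which is higher. With the replicate block the count over all features was 12, and that in the lists other than the 9 genes 0. The count in those lists, 2 (H2-Ab1 and Cox6a2), was 0 with dim probes kept, with the row as a block and in either row. It was 1 with a filter on all 8 arrays, and 0 to 3 without single arrays. The count of 3, without CreTW replicate 1, included Cox6a2 but not H2-Ab1. List genes outside the 28 named genes followed under each setting were thus called there. Of 608 values of 28 named genes under other settings, 535 kept direction and side of the threshold, 25 lost a call (H2-Ab1 and Cox6a2), 0 gained one, and 48 changed sign. The differences with a changed sign were as follows. CreTW replicate 1 alone against the 4 Cre arrays gave Cgas -0.079, Tbk1 0.12, Ifih1 0.080, Trex1 -0.11, Ifnar1 0.031, Jak1 -0.040, Stat2 -0.22, Irf9 -0.046. Scaling by the array median gave Trex1 -0.0071. Array weights gave Isg15 -0.052, Trex1 -0.0095, Jak1 -0.016. The mean of a gene's probes gave Cgas -0.021, Ifnar1 0.060, Stat2 -0.40. Normexp with an offset of 50 gave Usp18 -0.026, Trex1 -0.0050. Slide row 1 alone gave Usp18 -0.23, Cgas -0.36, Trex1 -0.12, Ifnar2 -0.049, Jak1 -0.18, Stat2 -0.060, Bst2 -0.034. Slide row 2 alone gave Isg15 -0.082, Irf7 0.00064, Oasl2 0.32, Zbp1 0.12, Sting1 0.25, Mavs 0.093, Ifih1 0.17, Oas1a 0.11, Oas2 0.31. Without single arrays the range crossed 0 for Isg15 (-0.073 to 0.12), Zbp1 (-0.34 to 0.047), Cgas (-0.049 to 0.23), Tbk1 (-0.30 to 0.078), Mavs (-0.12 to 0.013), Trex1 (-0.047 to 0.056), Jak1 (-0.042 to 0.13), Bst2 (-0.049 to 0.14). Signal near background limits Ifit3, Usp18 and Zbp1, and gives no fold for Ifit1 and Ifi44.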
